A study of Mus musculus with 80 samples.

Results

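The genes described here encode the proteins of the cytosolic ribosome, as measured in mouse left ventricle. They were the protein-coding genes whose symbol begins with Rpl or Rps followed by a digit, without the Rps6k kinases, together with Rplp0, Rplp1, Rplp2 and Rpsa. A gene was kept where its mean over 80 libraries was at least 1 CPM (counts scaled to library size). Of 56941 genes counted, 93 matched the symbols and 84 reached that level. They were 42 genes of the large subunit, 31 of the small subunit, 3 of the P stalk, 7 paralogs and Rps19bp1, which encodes a binding protein of a small-subunit protein and was taken in by its symbol. Rps27rt (1.19 CPM) and Rps10 (1.41 CPM) lay just inside the level, and Rpl9-ps6 (0.411 CPM) and Rpl24 (0.319 CPM) just outside it. The exons of Rpl24 overlap another annotated gene on the same strand over 71.5% of their length. How overlaps were counted is not stated, so the low count of Rpl24 is uncertain.

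RNA came from left ventricular tissue of C57Bl/6J mice, and poly-A selected libraries were read in pairs. In each sex, 10 libraries came from Western diet with a sham field (0 cGy), 10 from normal diet with a mixed field (labelled Mix, 50 cGy), 10 from normal diet with gamma rays (100 cGy), and 10 from normal diet with a sham field (0 cGy). The labels give no components of the mixed field, no age and no time after exposure. The titles number the libraries 1 to 40 in each sex, and every group has 5 libraries numbered 1-20 and 5 numbered 21-40. What these sets of numbers stand for is not stated, and neither is whether each library is a separate animal, so p-values rest on the spread between libraries, which may be technical.

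Libraries held 13484776 to 22143504 counts. Cardiomyocyte markers were all 10 measured and summed to 49040 to 77882 CPM, against 1402 to 2464 CPM for endothelial markers and 1162 to 3931 CPM for fibroblast markers. The library labelled female gamma, replicate 7, had 0.129 CPM of Xist, and no other female library was under 1 CPM. Atrial light chain Myl7 exceeded 10 CPM in 20 libraries, all male. These are whole-tissue samples, so fewer cells of a type and less RNA per cell cannot be told apart.

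The ribosome joins a small subunit, which decodes the messenger RNA, to a large subunit, which forms the peptide bond and carries the P stalk that recruits translation factors. Each ribosomal protein is needed in about equal number, and the genes are usually expressed together. Most of their transcripts start with a tract of pyrimidines (the 5′ TOP tract), through which mTORC1 signalling controls their translation. In heart, ribosome number and protein synthesis increase during hypertrophic growth.

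The stretches around the annotated starts of a few genes named in the results are shown. No result was tested against these sequences. The first 4 are short genes of the small or large subunit with the largest falls between the sets of title numbers in females, Rpl35 is a gene that differed the other way, Rplp0 is a stalk gene of high level, and Rpl3l is the muscle paralog. Each is 60 bases on the gene's strand, 40 before and 20 from the start, from RefSeq (GRCm38.p6). Capitals mark the longest run of pyrimidines (C or T) that reaches within 5 bases of the start.
Rps27 (chr3:90213629-90213688, minus strand): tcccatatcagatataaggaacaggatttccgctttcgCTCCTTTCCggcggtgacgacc
Rps21 (chr2:180257339-180257398, plus strand): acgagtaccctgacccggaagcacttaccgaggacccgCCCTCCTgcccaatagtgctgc
Rpl35a (chr16:33056442-33056501, plus strand): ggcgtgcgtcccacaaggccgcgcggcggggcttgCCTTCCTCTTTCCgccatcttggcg
Rpl38 (chr11:114668540-114668599, plus strand): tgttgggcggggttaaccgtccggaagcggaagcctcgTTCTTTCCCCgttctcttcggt
Rpl35 (chr2:39005112-39005171, minus strand): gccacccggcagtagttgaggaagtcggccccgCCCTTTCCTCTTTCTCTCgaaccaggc
Rplp0 (chr5:115559427-115559486, plus strand): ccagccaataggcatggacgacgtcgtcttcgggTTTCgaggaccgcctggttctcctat
Rpl3l (chr17:24727786-24727845, plus strand): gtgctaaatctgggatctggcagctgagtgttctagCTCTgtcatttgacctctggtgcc

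The run was 9 pyrimidines long in Rps27, 7 in Rps21, 13 in Rpl35a, 10 in Rpl38, 18 in Rpl35, 4 in Rplp0 and 4 in Rpl3l. The RefSeq table held 300-base windows (250 before the start and 50 after) for 62 of the 84 genes, 74 windows in all. A run of at least 8 pyrimidines came within 5 bases of the start in 32.4% of these windows, against 9.38% of all 32851 windows of the table. The letters CTTTCC, read on the gene's strand, lay in 37.8% of the windows of the ribosomal protein genes and in 14.1% of all windows. The letters CCGGAAG, on either strand, lay in 35.1% and 8.86%, and AAGATGG, on either strand, in 16.2% and 6.34%. TATAAA on either strand was in 9.46% and 13.6%. CTTTCC can lie inside a pyrimidine run, so these counts overlap. A match is only a match of letters.

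The counts of the members spanned a wide range. Rps2 averaged 619.4 ± 87.8 CPM, Rplp0 612.9 ± 74.3 CPM, Rpsa 475.6 ± 73.7 CPM and Rpl4 423.3 ± 38.4 CPM (SD, n = 80), and 63 genes averaged 100 CPM or more, on a scale that is not per length. Another 13 lay between 10 and 100 CPM, and 8 under 10 CPM. Of those 8, the exons of Rps10, Rpl13a, Rpl23a and Rpl35 overlap other annotated genes over more than 50% of their length on either strand, so their counts are uncertain, because nothing in the labels says how the authors' counting treated overlaps and strand. The same holds for 7 genes that had 10 CPM or more. Among them are Rpl30, Rpl31, Rpl5, Rps18, Rps25 and Rps27a, whose overlaps lie on the opposite strand. Rpl35rt and Rps27rt are retrogene copies of Rpl35 and Rps27, so reads may be split between copy and source gene and their counts are uncertain too. All 84 genes passed the filter on low counts.

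**Figure D1:**
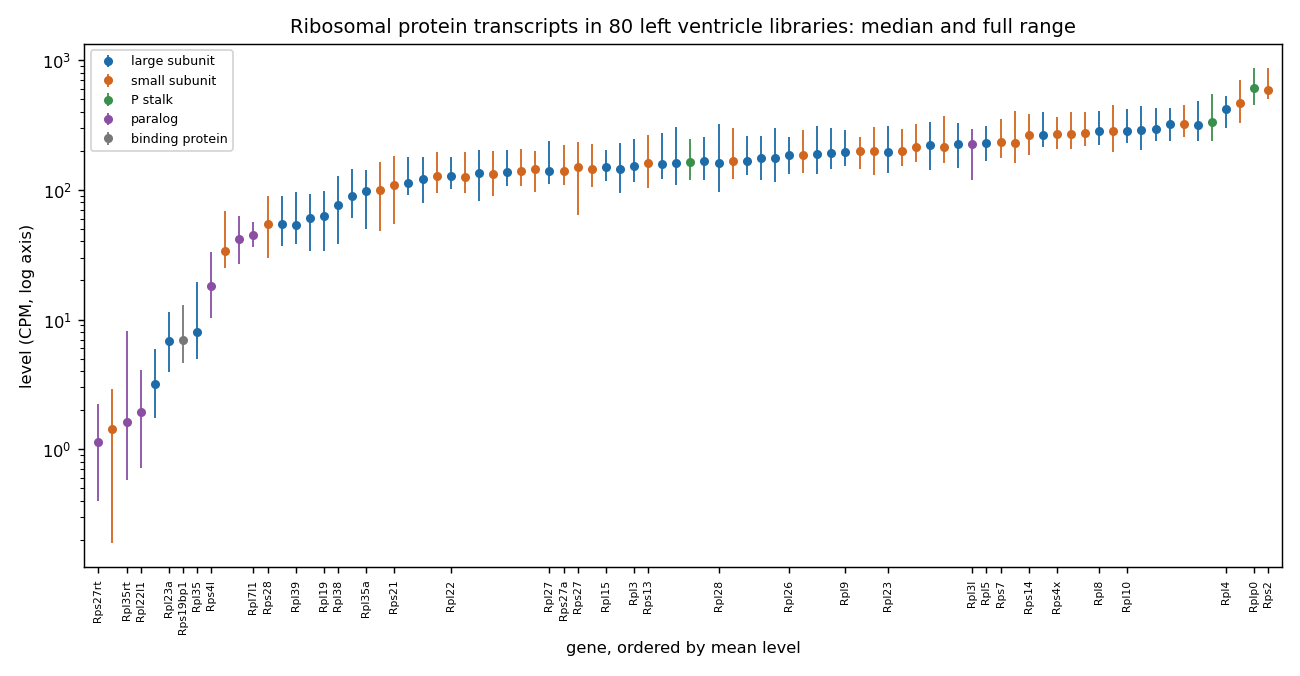
Level of each of the 84 ribosomal protein genes in CPM (log axis), ordered by mean level, with the median as a point and the lowest and highest of 80 libraries as a line, coloured by role; only genes picked by the naming rule carry a label. Rps2 and Rplp0 are at the right end (619.4 and 612.9 CPM on average), and the paralogs Rps27rt, Rpl35rt and Rpl22l1 are among the 4 genes at the left end.

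Per kilobase of coding sequence, Rpl41 reached 1309 and Rplp1 1030 CPM per kilobase. This scale leaves out untranslated sequence and was chosen after seeing the data. Rpl41 encodes the smallest ribosomal protein and Rplp1 an acidic protein of the stalk. Rps2 reached 704.6, Rplp0 644.5 and Rpl3 129.2 CPM per kilobase. Rpl3l, which replaces Rpl3 in ribosomes of heart and skeletal muscle, reached 182.2 CPM per kilobase. Per kilobase of all annotated exon sequence, the scale planned first, Rplp1 had 600.2, Rps2 336.4, Rplp0 206.4, Rpl3l 131.8, Rpl41 129.3 and Rpl3 29.2 CPM per kilobase, so the order depends on the length used. On the coding scale the log2 ratio of Rpl3l to Rpl3 averaged 0.50 over all libraries, and group means ran between 0.30 in male Western diet libraries and 0.68 in female Western diet libraries. The other paralogs were below their partners: the log2 ratio was -1.75 for Rps27l to Rps27, -2.67 for Rpl7l1 to Rpl7, -3.92 for Rps4l to Rps4x and -6.01 for Rpl22l1 to Rpl22.

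Within a group and set of title numbers, the members varied together from library to library. The Pearson correlation of each member with the mean of the others, over 80 libraries of log2 CPM after taking off the mean of each of the 16 sets of 5, had a median of 0.89. It was over 0.5 in 78 of 84 genes. The libraries share depth, composition and tissue sampling, so this is a description. The highest value was 0.97 for Rps15, and the lowest 0.20 for Rpl3l. Rps10 (0.25), Rpl13a (0.41), Rps4l (0.44), Rpl7l1 (0.45) and Rpl35rt (0.47) were the others at or under 0.5. Among the structural genes of high level, Rpl4 (0.54) and Rps4x (0.63) were the loosest. The SD of log2 CPM inside those sets had a median of 0.22, with 0.12 for Rpl4 and 0.40 for Rps29.

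Together the 84 genes took a median of 1.46% of a library's counts, with 1.10% in the lowest library and 2.04% in the highest. In males the share had a median of 1.54% (1.33% to 1.75%) in Western diet libraries, 1.55% (1.22% to 2.04%) in mixed field libraries, 1.53% (1.33% to 1.97%) in gamma libraries and 1.49% (1.36% to 1.82%) in sham libraries. In females it had a median of 1.37% (1.19% to 1.72%) with Western diet, 1.35% (1.29% to 1.74%) with the mixed field, 1.24% (1.10% to 1.75%) with gamma and 1.44% (1.254% to 1.763%) with sham. Each treated group overlapped its sham group. The female gamma libraries numbered 21-40 were low as a set, at 1.10% to 1.40%, against 1.28% to 1.74% in female sham libraries of the same numbers. The female gamma group also held the most alike pair of libraries. The chi-square per degree of freedom between libraries, which is low for near copies, was 1.642 at its lowest there. In the other groups the lowest was 4.307 to 14.16. Whether that pair is 1 sample read again was not tested.

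**Figure D2:**
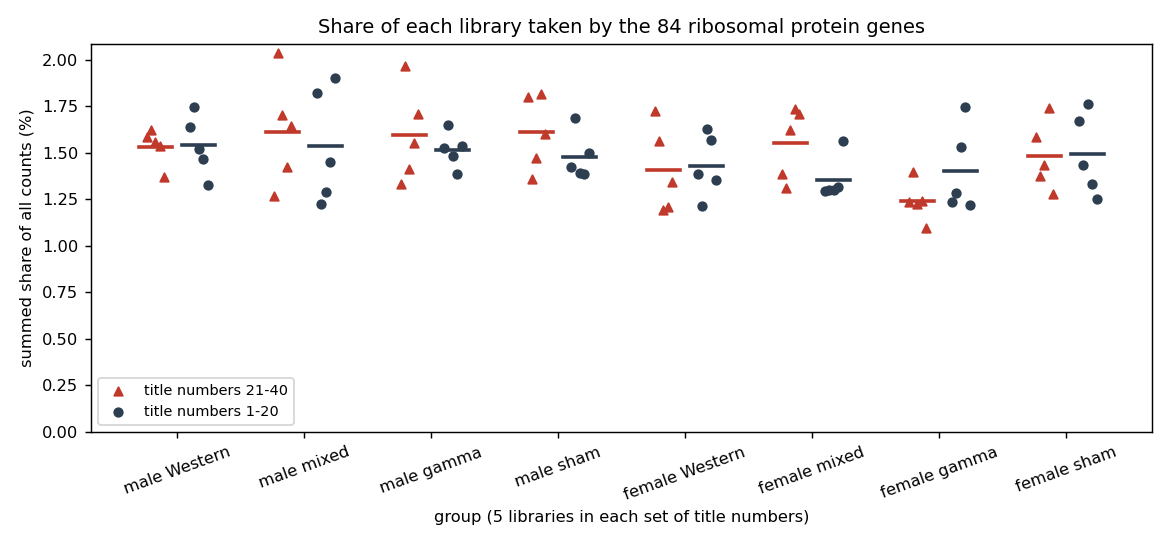
Summed share of all counts (percent) taken by the 84 ribosomal protein genes in each library, by group, with title numbers 21-40 as triangles and 1-20 as circles; bars are means of 5 libraries. The groups overlap throughout, and the female gamma triangles (1.10% to 1.40%) are the lowest set.

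Western diet was set against normal diet within the sham field to ask whether diet moved these transcripts. In neither sex was a member called. All calls are edgeR quasi-likelihood tests with Benjamini-Hochberg adjustment over 15879 genes, called under 0.05. The comparison called 0.397% of all genes tested in males and 0.0189% in females. At an unadjusted p under 0.05 there were 0 members in males and 5 in females, beside 2034 and 1174 of all 15879 genes tested. DESeq2 and limma voom also called 0 members in each sex. The median log2 change of the members was -0.02 in males and -0.05 in females, beside -0.01 and 0.00 over all genes.

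The genes of smallest p in that comparison included the Rpl3 pair. Rpl3l had 119.1 to 252.4 CPM (median 222.9) in male Western diet libraries, against 193.5 to 286.0 CPM (median 251.6) in male sham libraries. The groups overlap, and the log2 change was -0.19 ± 0.10 (SE, n = 10 each; edgeR adjusted p = 0.40). Rpl3 had 115.0 to 180.9 CPM (median 135.1) in female Western diet libraries, against 125.3 to 219.8 CPM (median 156.1) in female sham libraries, with a log2 change of -0.25 ± 0.10 (edgeR adjusted p = 0.60). Next by p were Rpl22 (0.13 ± 0.07 log2) and Rps2 (-0.15 ± 0.08) in males, and Rpl4 (-0.13 ± 0.06) and Rplp0 (-0.15 ± 0.07) in females, with edgeR adjusted p between 0.43 and 0.65. Males minus females, the Western diet effect differed by 0.31 ± 0.14 log2 for Rpl3 (edgeR adjusted p = 0.48). No member was called for that difference (0.447% of all genes tested were called). At an unadjusted p under 0.05 there was 1 member, beside 1468 of all 15879 genes, and DESeq2 and limma voom called 0 members.

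The mixed field was set against sham to ask whether that exposure moved these transcripts. No member was called in males (0.0693% of all genes tested were called) or in females (0%). At an unadjusted p under 0.05 there were 0 members in males and 5 in females, beside 1297 and 1027 of all 15879 genes tested. DESeq2 and limma voom called 0 members. The median log2 change was 0.02 in males and -0.03 in females. The smallest p in females was that of the retrogene copy Rpl35rt, which had 1.06 to 6.67 CPM (median 3.07) in female mixed field libraries, against 0.94 to 3.06 CPM (median 1.62) in female sham libraries. Its log2 change was 0.94 ± 0.31 (SE, n = 10 each; edgeR adjusted p = 0.73). Rpl4, a core protein of the large subunit, had a log2 change of -0.17 ± 0.06 in females (edgeR adjusted p = 0.73). Rps4x, the X-linked small-subunit gene, had -0.22 ± 0.08 in females (edgeR adjusted p = 0.73). In males the smallest p were those of Rpl22 (0.14 ± 0.07 log2), Rpl35rt (0.61 ± 0.33) and Rps27a (0.17 ± 0.10), with edgeR adjusted p between 0.62 and 0.70. No member was called for a difference between the sexes in the mixed field effect (0.0315% of all genes were called, and 0 members by DESeq2 or limma voom). At an unadjusted p under 0.05 there were 4 members, beside 1429 of all 15879 genes. The smallest p was that of Rpl9, at 0.27 ± 0.11 log2 (edgeR adjusted p = 0.47).

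Gamma rays were set against sham in the same way. Under gamma, 0 members were called in males (0.176% of all genes called) or in females (0%). In females 80 of 84 members had a negative log2 change, with a median of -0.16, beside 0.00 over all genes. An unadjusted p under 0.05 was found for 18 members, beside 1643 of all 15879 genes tested. DESeq2 and limma voom called 0 members in females, with 20 and 22 members at an unadjusted p under 0.05. In males 52 of 84 members were negative with a median of -0.02, and 0 had an unadjusted p under 0.05, beside 863 of all genes. The members vary together from library to library. Counts of signs or of small p, here and in the other comparisons, are therefore not counts of independent genes. The smallest p in males were those of Rpl3l (-0.17 ± 0.10 log2), Rpl23a (-0.22 ± 0.14) and Rps27rt (0.32 ± 0.23), with edgeR adjusted p of 0.95 to 0.97. With library totals alone as the scaling, the male median was 0.02 and the female median -0.17.

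Rps2 had 504.7 to 733.8 CPM (median 548.2) in female gamma libraries, against 563.9 to 790.9 CPM (median 678.4) in female sham libraries. The ranges overlap over most of their length. The log2 change was -0.24 ± 0.08 (SE, n = 10 each; edgeR adjusted p = 0.38), the smallest p among the members. Rplp0 had 450.0 to 727.4 CPM (median 544.0) in female gamma libraries, against 495.3 to 768.6 CPM (median 645.1) in female sham libraries, with a log2 change of -0.19 ± 0.07 (edgeR adjusted p = 0.39). Rpl8, another structural gene of the large subunit, had a log2 change of -0.20 ± 0.08 (edgeR adjusted p = 0.39). By role, 40 of 42 large-subunit genes, 30 of 31 small-subunit genes and 3 of 3 stalk genes were negative.

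The female gamma values differed in size between the sets of title numbers. The median log2 change of the members was -0.31 among libraries numbered 21-40 and -0.06 among those numbered 1-20. The difference between the sets was called for 0 members and for 0% of all genes, and for 0 members by DESeq2 or limma voom. At an unadjusted p under 0.05 there were 12 members, beside 551 of all 15879 genes. The sexes differed in the gamma effect by a median of 0.15 log2, 79 of 84 members being positive. No member was called for that difference by edgeR, DESeq2 or limma voom (0% of all genes tested were called by edgeR). Of the members, 0 had an unadjusted p under 0.05, beside 854 of all 15879 genes. The female gamma library whose Xist count goes against its label is among those numbered 21-40, and without it no member was called either.

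Other genes of translation were looked at beside these. In females under gamma, 76 of 78 mitochondrial ribosomal protein genes and 16 of 20 other TOP messenger RNAs were negative, with median log2 changes of -0.14 and -0.08, and 0 were called in each list. The genes of ribosome biogenesis had a median of -0.05 and those of mTORC1 and TOP control 0.09, again with 0 called of 40 and of 23.

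Mixed field and gamma were also set side by side, at 50 cGy and 100 cGy, so field and dose cannot be told apart. Here too 0 members were called in males (0.573% of all genes tested were called) or in females (0.0252%). DESeq2 and limma voom called 0 members. The unadjusted p was under 0.05 in 0 members in males and 15 in females, beside 1412 and 2225 of all 15879 genes tested. In females 75 of 84 members were positive, with a median log2 change of 0.14, beside 0.02 over all genes. Among female libraries numbered 21-40 the median was 0.44 and 18 members were called higher, beside 1.82% of all genes tested called higher and 0.901% called lower among the same libraries, whereas among those numbered 1-20 it was -0.13. The difference between those 2 values was not tested. Each set holds 5 libraries a group. The gamma libraries numbered 21-40 include female gamma replicate 7, whose Xist count goes against its label. The 18 calls without that library are not given here. Rps4l, a paralog of Rps4x, had 10.3 to 33.4 CPM (median 19.3) in female mixed field libraries, against 10.6 to 19.3 CPM (median 13.9) in female gamma libraries. Its log2 change was 0.52 ± 0.17 in all female libraries (SE, n = 10 each; edgeR adjusted p = 0.20) and 0.99 ± 0.22 within numbers 21-40 (edgeR adjusted p = 0.035), but -0.01 ± 0.20 within numbers 1-20 (edgeR adjusted p = 0.99). Rps19bp1 (0.36 ± 0.13 log2) and Rpl28 (0.36 ± 0.13) followed in all female libraries, with edgeR adjusted p of 0.22 and 0.24, and within numbers 21-40 Rps19bp1 was at 0.67 log2 (edgeR adjusted p = 0.044). In males Rps27a (0.17 ± 0.10), Rps2 (0.14 ± 0.08) and Rpl35rt (0.51 ± 0.32) had the smallest p, with edgeR adjusted p between 0.64 and 0.69.

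The effect of each treatment was compared between the sets of title numbers in a model with 16 cells. No member was called for the Western diet effect in males (0.0315% of all genes tested) or females (0%), for the mixed field effect in males (0.0252%) or for the gamma effect in males (0%), by edgeR, DESeq2 or limma voom. At an unadjusted p under 0.05 there were 2, 1, 2 and 0 members, beside 2163, 485, 1250 and 548 of all 15879 genes. For the mixed field in females 1.39% of all genes were called and 0 members, by each of the 3 tools. There 79 of 84 members were positive, with a median of 0.32 log2 for numbers 21-40 minus 1-20. An unadjusted p under 0.05 was found for 18 members, beside 2722 of all 15879 genes. In that comparison the median log2 change against sham was 0.12 within numbers 21-40 and -0.20 within numbers 1-20. The smallest adjusted p was 0.095, for Rps4l (0.94 ± 0.30 log2, edgeR).

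**Figure D3:**
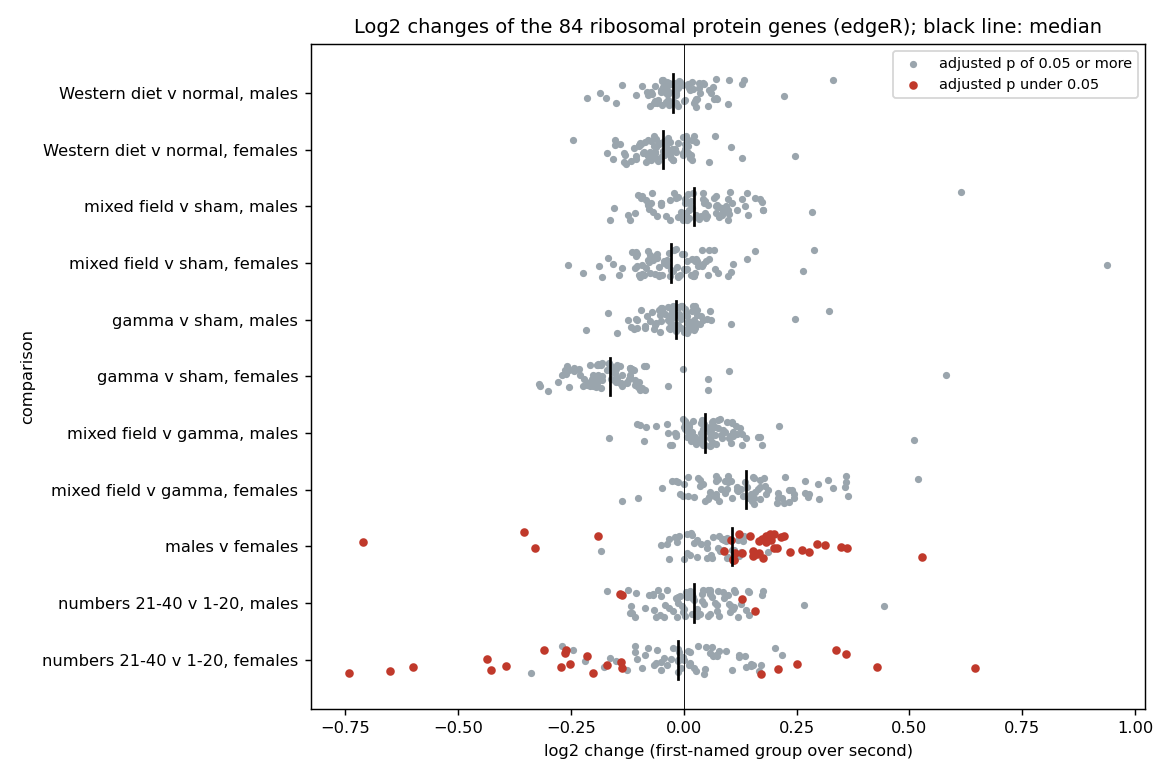
Log2 change of each of the 84 ribosomal protein genes (horizontal axis, first-named group over second) in 11 comparisons, red where the edgeR adjusted p was under 0.05, with the median as a black line. No treatment comparison holds a red point, gamma in females is shifted to a median of -0.16, and the red points lie in the sex comparison (38 genes) and in the comparisons of title numbers (4 genes in males, 23 in females).

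Males were set against females over all groups. Of the 84 members, 34 were higher and 4 lower in males, beside 11.8% of all genes tested called higher and 11.5% called lower. The median log2 change was 0.11 for the members and -0.01 for all genes, and 72 of 84 members were positive. By role, 20 of 42 large-subunit genes, 11 of 31 small-subunit genes and 2 of 3 stalk genes were called higher in males. Of the 4 X-linked members 1, Rpl36a, was called.

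Rps27 encodes a zinc-finger protein of the small subunit (ENSMUSG00000090733, chr3:90119819-90120977 in GRCm39, minus strand). It had 79.8 to 234.1 CPM (median 174.4) in male libraries and 63.5 to 199.3 CPM (median 119.1) in female libraries. The ranges overlap widely, but the log2 change was 0.53 ± 0.09 (SE, n = 40 each; edgeR adjusted p = 5.8e-06), the largest rise among the called members. Rps21, of the small subunit (ENSMUSG00000039001, chr2:179899114-179900249), had 64.0 to 183.8 CPM (median 121.7) in males and 54.3 to 169.0 CPM (median 89.3) in females, a log2 change of 0.36 ± 0.08 (edgeR adjusted p = 0.00069). Rpl35a (ENSMUSG00000060636, chr16:32876630-32880559), a gene mutated in some people with Diamond-Blackfan anaemia, had 64.4 to 142.9 CPM (median 105.3) in males and 49.7 to 122.2 CPM (median 85.4) in females, a change of 0.35 ± 0.07 (edgeR adjusted p = 7.5e-05). Rpl19, of the large subunit, changed by 0.31 ± 0.07 (edgeR adjusted p = 0.00028).

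Members with more counts included several with smaller changes. Rplp0 had 532.9 to 872.7 CPM (median 634.0) in males and 450.0 to 768.6 CPM (median 575.7) in females, a log2 change of 0.11 ± 0.04 (SE, n = 40 each; edgeR adjusted p = 0.016). Rpsa, the laminin receptor homologue of the small subunit, changed by 0.15 ± 0.05 (edgeR adjusted p = 0.014). Rps6, the substrate of the S6 kinases, changed by 0.11 ± 0.04 (edgeR adjusted p = 0.030). Rpl3 changed by 0.18 ± 0.05 (edgeR adjusted p = 0.0061), and its muscle paralog Rpl3l was at 0.01 ± 0.05 (edgeR adjusted p = 0.92).

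The 4 genes lower in males all had under 10 CPM. Rpl35rt had 0.58 to 3.42 CPM (median 1.37) in males and 0.83 to 8.11 CPM (median 1.76) in females, a log2 change of -0.71 ± 0.16 (SE, n = 40 each; edgeR adjusted p = 0.00056). Rpl35 changed by -0.33 ± 0.09 (edgeR adjusted p = 0.0037), Rpl22l1, the paralog of the RNA-binding protein Rpl22, by -0.35 ± 0.12 (edgeR adjusted p = 0.023), and Rpl23a by -0.19 ± 0.07 (edgeR adjusted p = 0.037). The call of Rpl23a ended in 19 of the 80 fits that leave out 1 library (edgeR adjusted p up to 0.061), with the highest p without male gamma replicate 2. Rpl35 and Rpl23a are 2 of the genes whose exons overlap other genes, and reads of Rpl35 and Rpl35rt may be shared, so these directions are uncertain.

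The sex difference was not the same in each set of title numbers. Within numbers 21-40, 28 members were called higher in males and 3 lower, beside 11.1% and 9.13% of all genes tested. Within numbers 1-20, 19 were called higher and 0 lower, beside 16.3% and 16% of all genes tested, and none of the 8 genes named above for the sex difference as the largest rises or as falls was called. Only Rpl14, Rpl17, Rpl5 and Rps14 were called higher in both, all of them named here because they are the whole of that overlap. These 4 are 14.3% of the 28 and 21.1% of the 19. Over all genes tested, 419 were called higher in males in both sets, which is 23.7% of those called in numbers 21-40 and 16.1% of those called in numbers 1-20. Rpl5 carries 5S ribosomal RNA into the large subunit, and its count is uncertain because its exons overlap another gene on the opposite strand. It had 206.2 to 313.5 CPM (median 243.1) in male libraries and 167.8 to 276.7 CPM (median 216.6) in female libraries. Its log2 change was 0.15 ± 0.05 within numbers 21-40 and 0.13 ± 0.05 within numbers 1-20 (SE, n = 20 each; edgeR adjusted p = 0.024 and 0.039). The log2 change of Rps27 was 0.95 ± 0.08 within numbers 21-40 (edgeR adjusted p = 1.5e-11) and 0.22 ± 0.10 within numbers 1-20 (edgeR adjusted p = 0.084).

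**Figure D4:**
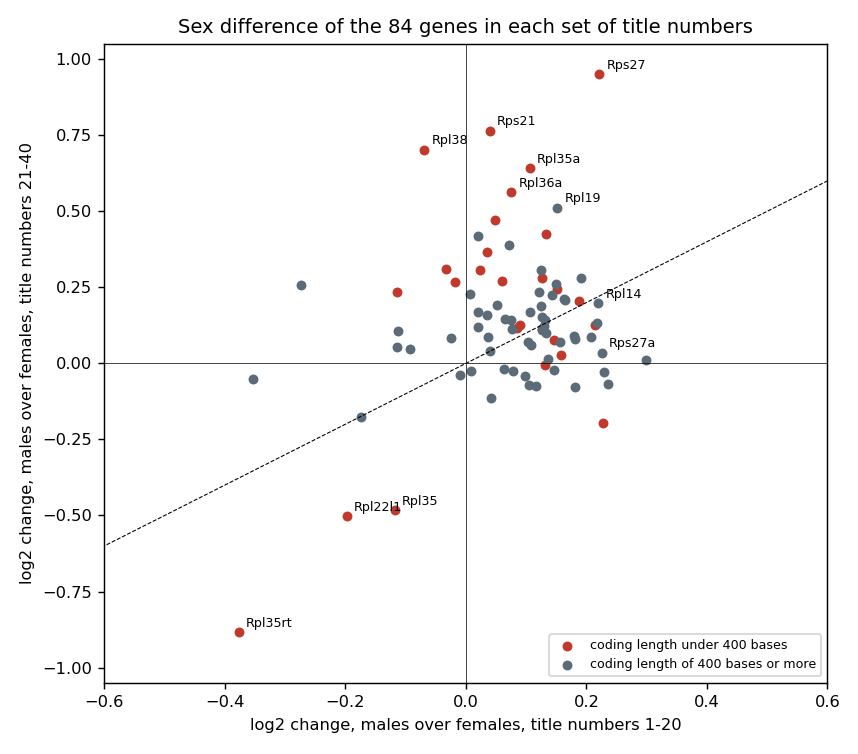
Log2 change of each ribosomal protein gene, males over females, within title numbers 21-40 (vertical axis) against 1-20 (horizontal axis), with the line of equal change dashed and genes of coding length under 400 bases in red. Rps27 (0.95 against 0.22), Rps21, Rpl35a, Rpl38 and Rpl36a lie far above the line, and Rpl35rt, Rpl22l1 and Rpl35 below it.

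Atrial tissue in some male libraries moves with this comparison. All 8 atrial muscle markers were called higher in males, and their summed level was 52.7 to 2256 CPM in males numbered 21-40, 65.7 to 1210 CPM in males numbered 1-20, 55.2 to 79.9 CPM in females numbered 21-40 and 50.0 to 78.1 CPM in females numbered 1-20. Without the 20 male libraries over 10 CPM of Myl7, 20 members were called, 19 higher and 1 lower in males, beside 5.65% of all genes tested called higher and 4.64% called lower. Rps27 still differed by 0.53 log2 (edgeR adjusted p = 0.0013), and Rpl22l1, Rpl35 and Rpl23a were no longer called. Myl7 had a median of 51.59 CPM in males numbered 1-20 and 0.1602 CPM in males numbered 21-40. The male libraries kept therefore lean to numbers 21-40, while the female libraries come from both sets. Sex and title number cannot be told apart in these values. The 7 atrial markers other than Myl7, which was not counted because it chose the libraries, then summed to 52.6 to 103.2 CPM (median 62.0) in the 20 male libraries kept and 50.0 to 79.5 CPM (median 62.5) in the 40 female libraries. Markers of other cell types were counted in the sex comparison as well, beside 11.8% of all genes tested called higher and 11.5% called lower. Of 8 adipocyte markers 3 passed the filter on low counts, and all 3 were called higher in males, with a summed level of 0 to 16.01 CPM (mean 3.21) in males and 0 to 2.91 CPM (mean 0.593) in females. Smooth muscle and pericyte markers were called higher for 6 of 9 and lower for 0, neuronal and Schwann markers higher for 4 of 6 and lower for 1, fibroblast markers higher for 1 of 10 and lower for 3, cardiomyocyte markers higher for 3 of 10 and lower for 1, and macrophage markers higher for 0 of 10 and lower for 2. Summed levels of cardiomyocyte markers averaged 64698 CPM in males and 65554 CPM in females, and those of endothelial markers 1781 and 1783 CPM. Erythroid markers averaged 378.3 and 510.4 CPM and lymphocyte markers 19.13 and 17.99 CPM. The part of these cell types was not tested.

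Lists of other genes of translation were counted in the same comparison, beside 11.8% of all genes tested called higher and 11.5% called lower. Of 78 mitochondrial ribosomal protein genes, 34 were called higher and 1 lower in males, with a median log2 change of 0.09. Of 20 other TOP messenger RNAs, 9 were called higher and 0 lower (median 0.08), among them Naca (0.35 ± 0.06, edgeR adjusted p = 1.6e-06), Eif3f (0.29 ± 0.03, edgeR adjusted p = 5.7e-11) and Npm1 (0.18 ± 0.03, edgeR adjusted p = 7.9e-05). Of 40 ribosome biogenesis factors 5 were called higher and 5 lower, and of 16 RNA polymerase I genes 1 higher and 3 lower. Of 23 genes of mTORC1 and TOP control 1 was called higher and 3 lower, and Ddit4, which restrains mTORC1, was lower in males by the widest margin of these lists (-0.89 ± 0.10 log2, edgeR adjusted p = 1.5e-11).

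The sets of title numbers were compared within each sex. In females, 7 members were higher and 16 lower in numbers 21-40 than in 1-20, beside 11.9% of all genes tested called higher and 12.1% called lower. In males 2 were higher and 2 lower, a count that ran between 2 and 10 when single male libraries were left out, beside 17% of all genes called higher and 12.8% called lower. With library totals alone as the scaling, 8 members were called in males, all higher. The medians over the members were -0.01 in females, which became 0.02 with library totals alone, and 0.02 in males.

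Markers of other cell types were counted for title number too. Over all genes tested, 17% were called higher and 12.8% lower in males, and 11.9% and 12.1% in females. In males 6 of 10 fibroblast markers were called lower and 0 higher, with a summed level of 1162 to 2483 CPM (mean 2011) in numbers 21-40 and 1765 to 3931 CPM (mean 2649) in numbers 1-20. Of 9 smooth muscle and pericyte markers 5 were called lower and 0 higher in males, at 743.6 to 1430 CPM in numbers 21-40 and 1124 to 1532 CPM in numbers 1-20. Of the 8 atrial markers 5 were called lower and 1 higher in males, and all 3 adipocyte markers measured were called lower. In females 4 of 9 smooth muscle and pericyte markers were called higher and 1 lower, at 837.5 to 1267 CPM in numbers 21-40 and 1005 to 1235 CPM in numbers 1-20, and 1 of 10 fibroblast and 0 of 8 atrial markers were called. Their part in the results on title number was not tested.

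In females the largest falls were in short genes, though some genes of coding length under 400 bases were called higher. Rps27 had 63.5 to 149.0 CPM (median 87.4) in female libraries numbered 21-40 and 73.9 to 199.3 CPM (median 150.7) in those numbered 1-20, a log2 change of -0.74 ± 0.09 (SE, n = 20 each; edgeR adjusted p = 5.4e-09). Rps21 had 54.3 to 108.7 CPM (median 69.4) in female libraries numbered 21-40 and 65.4 to 169.0 CPM (median 107.0) in those numbered 1-20, a change of -0.65 ± 0.09 (edgeR adjusted p = 7.0e-08). The ranges overlap, and the medians of female libraries numbered 21-40 lie in the lowest part of the ranges of those numbered 1-20. Rpl38 (ENSMUSG00000057322, chr11:114559350-114563166), which in mouse embryos is needed for the translation of Hox genes, had 37.9 to 102.2 CPM (median 45.9) in female libraries numbered 21-40 and 43.4 to 119.3 CPM (median 80.05) in those numbered 1-20, a change of -0.60 ± 0.11 (edgeR adjusted p = 5.2e-05). Rpl35a changed by -0.44 ± 0.08 (edgeR adjusted p = 2.3e-05).

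In males none of these 4 genes was called for title number. Rps27 had a median of 175.2 CPM (133.7 to 234.1) in male libraries numbered 21-40 and 172.3 CPM (79.8 to 232.8) in those numbered 1-20. Rpl38 had a median of 88.1 CPM (46.1 to 127.0) in male libraries numbered 21-40 and 79.0 CPM (43.0 to 113.0) in those numbered 1-20. The called genes in males were Rpl10 (0.16 ± 0.06 log2, edgeR adjusted p = 0.025) and Rps4x (0.13 ± 0.05, edgeR adjusted p = 0.049), both X-linked, with Rpl7l1 (-0.14 ± 0.04, edgeR adjusted p = 0.011) and Rpl15 (-0.14 ± 0.05, edgeR adjusted p = 0.031). The call of Rps4x ended in 24 of the 40 fits that leave out 1 male library, that of Rpl15 in 10 and that of Rpl10 in 3. With no low count filter none of these 4 genes was called.

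The genes that were higher in females numbered 21-40 included Rpl35rt (0.65 ± 0.18 log2, edgeR adjusted p = 0.0056), Rpl22l1 (0.43 ± 0.15, edgeR adjusted p = 0.034), Rpl35 (0.36 ± 0.10, edgeR adjusted p = 0.0049) and Rpl28 (0.34 ± 0.09, edgeR adjusted p = 0.0024). The call of Rpl22l1 ended in 11 of the 40 fits that leave out 1 female library (edgeR adjusted p up to 0.080), with the highest p without female Western diet replicate 7. Rpl28, of the large subunit, had 133.1 to 319.2 CPM (median 161.9) in female libraries numbered 21-40 and 96.6 to 207.2 CPM (median 138.0) in those numbered 1-20.

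**Figure D5:**
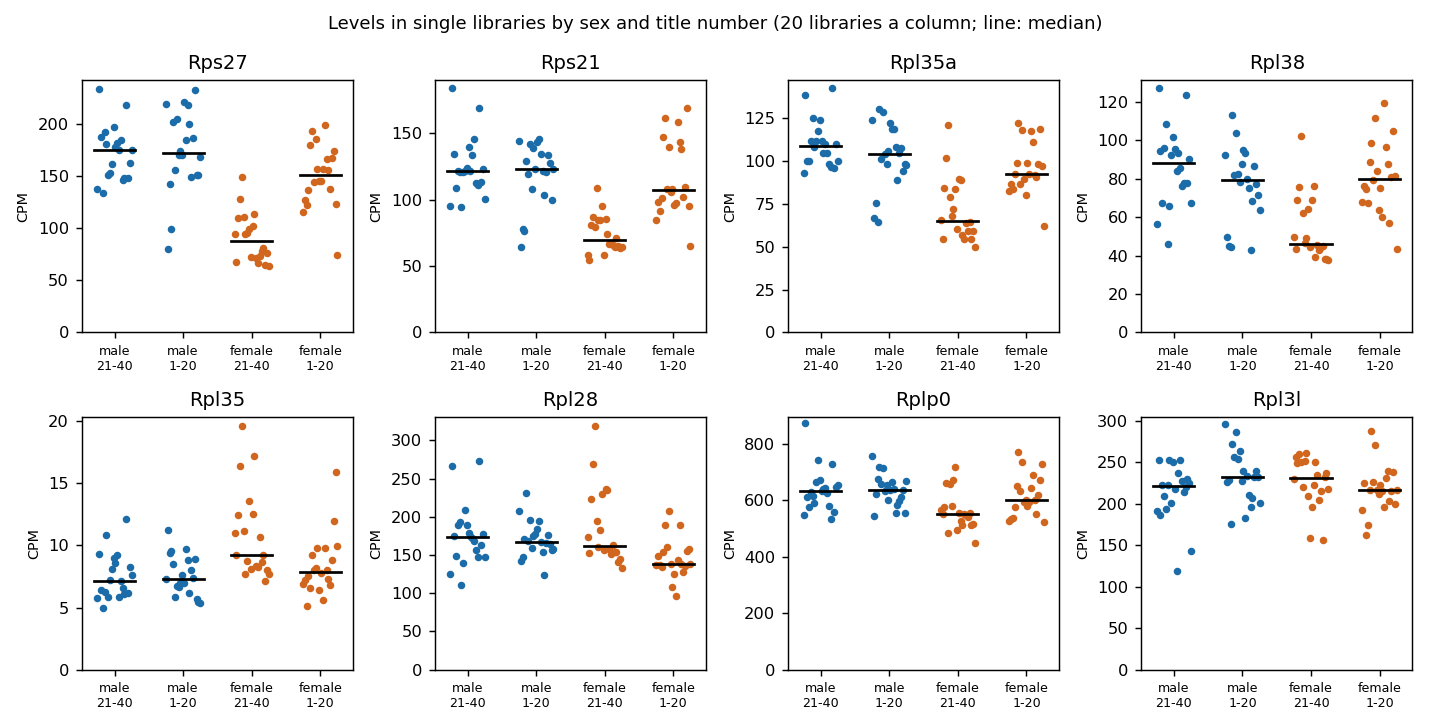
Level in CPM of 8 ribosomal protein genes in each library, by sex and title number, 20 libraries a column with the median as a line. Rps27, Rps21, Rpl35a and Rpl38 are lowest in female libraries numbered 21-40 (Rps27 median 87.4 CPM), and the medians of Rplp0 lie between 551.4 and 635.5 CPM.

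The effect of title number was tested for a difference between the sexes. It was called for 19 members, 16 with a higher and 3 with a lower value in males, beside 14.6% and 12.3% of all genes tested. Rpl38 differed by 0.78 ± 0.16 log2 (edgeR adjusted p = 0.00017), Rps27 by 0.73 ± 0.13 (edgeR adjusted p = 1.7e-05), Rps21 by 0.73 ± 0.13 (edgeR adjusted p = 1.1e-05) and Rpl35a by 0.54 ± 0.11 (edgeR adjusted p = 0.00016). The lower values were those of Rpl39 (-0.42 ± 0.12, edgeR adjusted p = 0.0064), Rpl35 (-0.36 ± 0.14, edgeR adjusted p = 0.048) and Rpl27 (-0.25 ± 0.10, edgeR adjusted p = 0.0499). The call of Rpl35 ended in 50 of the 80 fits that leave out 1 library (edgeR adjusted p up to 0.084, without female sham replicate 9) and that of Rpl27 in 56 (up to 0.086, without female Western diet replicate 6). Neither was called by DESeq2 or limma voom.

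Coding length and the ribosomal RNA share moved with these differences. Among 26 members with a coding length under 400 bases, 10 were lower and 4 higher in females numbered 21-40, with a median log2 change of -0.17. Among the 17 of 700 bases or more, 2 were lower and 0 higher, with a median of -0.01. Over all genes tested, whatever their length, 12.1% were called lower and 11.9% higher in that comparison. The share of counts on Rn18s-rs5, an 18S ribosomal RNA repeat, had a median of 0.483% (0.400% to 0.776%) in females numbered 21-40 and 3.57% (0.102% to 5.03%) in females numbered 1-20. In males it was 1.65% (1.09% to 3.29%) in numbers 21-40 and 0.351% (0.161% to 2.26%) in numbers 1-20. The share thus goes with title number in each sex, so a term for it takes up much of the title number difference in any gene. A loss of calls under that term cannot tell the share from title number. With that share as a term for each sex, 1 member was called for title number in females, 0 in males and 1 for the difference between the sexes. Over all genes tested, calls in either direction under the same term came to 2.7% in females, 3.31% in males and 3.79% for the difference, against 24%, 29.8% and 26.9% without it. Between the sexes 39 members were called with the term and 38 without it, beside 29.5% and 23.3% of all genes tested. The part of coding length in the result was not tested.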

How the data were processed

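The authors deposited raw counts per gene for 80 poly-A selected libraries of left ventricular tissue. The submitters' processing notes name STAR 2.7.8a, FastQC 0.11.9 and the build GRCm39 (mm39). No counting tool, strand setting or annotation is named in the sources used here. The deposited gene IDs were matched to symbols with GENCODE vM39.

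The counts were scaled with TMM in edgeR 4.0.16 (R 4.3.3), and CPM are TMM-scaled. Genes were kept with filterByExpr on 8 groups, which left 15879 genes. Tests were quasi-likelihood F tests in 1 fit of 8 groups, or of 16 cells of group and title number, with Benjamini-Hochberg adjustment over all genes. The script was tested on simulated data. DESeq2 1.42.0, limma 3.58.1 (voom), other scalings and filters, added terms, and fits leaving out each library were alternatives; the last kept the dispersion trend of the full fit. Levels per kilobase used coding length, chosen after seeing the data, beside the planned exon length. Depth was 13484776 to 22143504 counts per library.

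Named members were all called genes, or the 4 largest rises and 4 largest falls where over 8 were called, plus those of smallest p where fewer than 3 were, and a few by role. The members and the lists were chosen with earlier results of these data known. Numbers shared by an M and an F title did not pair the libraries: 6 of 40 pairs had a correlation of deviations over 0.1.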

Additional observations from a re-analysis of the deposited data

Results flagged for a closer look

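In each group of 10 libraries, the highest or lowest library was looked at for each named gene and for the summed level. It stood apart, by a gap larger than chance gives in 1 of 20 groups, in 32 of 288 groups (11.1%, where chance gives about 5%). The members vary together, so the groups are not independent, and an excess over chance was not tested.

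Most of the flagged cases were male gamma replicate 7, which was high. Its summed level was 20821 CPM, against 13222 to 15842 CPM in the other male gamma libraries. It had 422.9 CPM of Rpl10, 179.9 of Rpl22, 3.80 of Rpl22l1, 310.1 of Rpl23, 253.7 of Rpl26, 273.1 of Rpl28, 12.1 of Rpl35, 142.9 of Rpl35a, 3.42 of Rpl35rt, 123.5 of Rpl38, 385.2 of Rpl8, 289.9 of Rpl9, 267.1 of Rps13, 844.8 of Rps2, 168.9 of Rps21, 89.2 of Rps28 and 324.4 of Rps7. Without that library 35 members were called between the sexes.

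Female gamma replicate 4 was high for Rpl27 (179.0 CPM), Rpl35rt (8.11), Rpl39 (93.6), Rps27a (194.2) and Rps7 (333.7). Other high libraries were female mixed field replicate 10 for Rpl19 (93.1 CPM), male sham replicate 9 for Rpl3 (224.4), female mixed field replicate 5 for Rps21 (147.4), female gamma replicate 3 for Rps21 (169.0) and female sham replicate 1 for Rps4l (31.8). Low libraries were male Western diet replicate 5 for Rpl38 (43.0 CPM), and, for Rpl3l, male Western diet replicate 7 (119.1), male gamma replicate 10 (142.7) and female gamma replicate 7 (156.3).

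The effect of title number differed between males and females in 19 members, by a test of the difference itself. It was higher in males by 0.78 log2 for Rpl38, 0.73 for Rps27, 0.73 for Rps21 and 0.54 for Rpl35a. It was -0.42 for Rpl39, -0.36 for Rpl35 and -0.25 for Rpl27.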

How the results depend on the processing

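Of the counts of called members, 212 results of alternatives stayed within 1.5 times the main count and 9 did not. Between males and females, 20 members were called without the libraries over 10 CPM of Myl7 and 19 among title numbers 1-20 alone. For title number in males, 8 were called with library totals only, 0 with no low count filter and 0 with the Rn18s-rs5 share as a term. With that term 1 was called in females and 1 for the difference between the sexes. For mixed field against gamma in females, 18 were called among title numbers 21-40 alone. For the difference between the sets of numbers in the female mixed field effect, 1 was called with no low count filter. Leaving out each library gave 35 to 46 members between the sexes, 2 to 10 for title number in males (2 without male mixed field replicate 1 or 3 or male gamma replicate 2 or 10, and 10 without male mixed field replicate 5), 20 to 26 in females, 15 to 21 for the difference between the sexes, 0 to 1 for the female mixed field difference between the sets (1 without female mixed field replicate 6), and 0 in the treatment comparisons. With the title number as a replicate block, 35 members were called between the sexes (32 higher, 3 lower), and the numbers do not pair the libraries. Of the named changes, 49 results of alternatives and 173 of the fits leaving out 1 library lost a call with no change of direction, while 3 results of alternatives and 1 of those fits gained one. The Rn18s-rs5 term, which goes with title number itself, accounted for 17 of the 49. It ended each named call for title number in males and all but that of Rps27 in females and for the difference between the sexes. Title numbers 1-20 alone accounted for 8, library totals only for 5, no low count filter for 5 and the removal of libraries over 10 CPM of Myl7 for 3. The calls lost under the most alternatives were those of Rpl23a between the sexes (6), and of Rpl27 (6) and Rpl35 (5) for the difference between the sexes in title number. The median change of the members moved by more than the spread between libraries in 3 results, all within 1 set of title numbers.

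Directions turned round in 3 results: Rpl35rt, mixed field against gamma in males, was -0.15 log2 within numbers 21-40, and in females Rps4l was -0.014 and Rpl28 -0.0032 within numbers 1-20, in the same comparison. The cause was not tested. Genes with under 10 CPM have few counts, which limits their precision.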
